A study of Mus musculus with 12 samples.

Results

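The effect of methotrexate (MTX) on gene expression in epididymal white adipose tissue (eWAT) was taken as an average over 2 genotypes of mice on a high-fat diet. It is the mean of the MTX minus vehicle difference in flox mice and the same difference in KO mice. All 12 libraries of the series entered it, 6 from MTX-injected and 6 from vehicle-injected mice, with 3 mice in each of the 4 groups (flox vehicle, flox MTX, KO vehicle and KO MTX). Flox mice were miR-181a2b2 flox/flox and, as far as the labels say, carried no Cre, so that they served as the controls. KO mice were miR-181a2b2-/- in all tissues. Both genotypes received a diet with 60% fat for 12 weeks and a weekly intraperitoneal injection of vehicle or of MTX at 1 mg/kg. The methods describe the mice as male, age-matched littermates, and no age is given for these mice. Genotype and treatment were the only variables that the labels give, and each library came from a different numbered mouse of its group.

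KO mice lack the precursors of miR-181a and miR-181b on chromosome 2. The mature 5p strands are shown because they are what distinguishes the genotypes over which the effect was averaged. Both were taken from RefSeq (GRCm38.p6), they lie on the plus strand at chr2:38852741-38852763 and chr2:38853845-38853868, and the capitals mark the seed, bases 2 to 8, which is the same in both.
mmu-miR-181a-5p: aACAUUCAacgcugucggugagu
mmu-miR-181b-5p: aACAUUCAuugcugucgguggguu
The precursor Mir181b-2 had 0 counts in all 12 libraries, and Mir181a-2 had 2 counts in flox MTX replicate 4 and 0 elsewhere, so the deletion could not be checked in these data.

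MTX is a folate analog that blocks folate-dependent enzymes, and its polyglutamates inhibit thymidylate synthase and the purine synthesis enzyme encoded by Atic. Inhibition of the latter is known to raise extracellular adenosine, which acts on leukocytes and endothelium through adenosine receptors. eWAT lies along the epididymis and the testis, and in obesity it accumulates macrophages and lymphocytes. The average gives the change with MTX over both genotypes, and the test of the difference between genotypes, given below, addresses whether a change depends on the genotype.

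The libraries held 19495310 to 23976469 counts. Levels are given as CPM, counts scaled to the library total with TMM factors, or, for sums over marker lists, to all counts. All 20 adipocyte markers were detected in every group, and their sum took 37079 to 76171 CPM in flox vehicle, 51128 to 91486 in flox MTX, 35016 to 56803 in KO vehicle and 22848 to 44206 in KO MTX libraries. The flox vehicle libraries stood apart from the other 9 in RNA of neighboring organs. Summed epididymis markers reached 6925, 19819 and 2355 CPM in the flox vehicle mice (replicates 1, 3 and 4), 735 CPM in replicate 1 of flox MTX, and 33.5 to 57.9 CPM in the other 8 libraries. Testis germ cell markers summed to 890, 816 and 395 CPM in the flox vehicle libraries and to 54.7 to 106 CPM in the rest. Summed markers of macrophages ran the other way, with 895 to 1599 CPM in flox vehicle, 1104 to 7250 in flox MTX, 6219 to 11210 in KO vehicle and 8212 to 13785 in KO MTX libraries. Since these are bulk samples, fewer cells of a type and less RNA per cell cannot be told apart.

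Of 18702 genes tested, 2719 (14.5%) were called in the averaged effect, at a Benjamini-Hochberg adjusted p below 0.1 from edgeR's quasi-likelihood test and a fold change of at least 1.5. MTX-injected mice had higher levels of 826 of them (4.42% of the genes tested) and lower levels of 1893 (10.1%). The estimates had the same sign in both genotypes for 2500 of the 2719 genes. A stricter condition, at least 1.5-fold the same way in flox and in KO mice, was met by 1507 genes (8.06% of the genes tested), 387 higher (2.07%) and 1120 lower (5.99%). These 1507 genes are called shared below. Since the averaged test and this condition use the same libraries, the count is a description of the set. Shared genes without any overlap between MTX and vehicle mice within either genotype numbered 112 among the rises and 412 among the falls. Such a separation upward and downward was seen in 2.27% and 2.91% of all genes tested. It takes no account of the width of the gap, which can be a few counts.

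The contribution of the genotypes to the average was unequal. Among the 4528 genes called in flox mice alone (24.2% of the genes tested), the 1513 rises had a median log2 fold change of 1.28 in flox mice and 0.29 in KO mice, and the 3015 falls had medians of -2.59 and -0.32. In KO mice alone edgeR called 0 genes (0.0%), with 1491 genes at an unadjusted p below 0.05, and DESeq2 called 281. The signs agreed in KO mice for 80.4% of the flox rises and for 69.3% of the flox falls. Over all genes tested the signs agreed for 60.1%, and 48.3% were positive in KO mice. Of the 1507 shared genes, 357 of the 387 rises and 940 of the 1120 falls were larger in flox mice. Median log2 fold changes of the shared rises were 2.14 in flox and 1.12 in KO mice, and those of the shared falls -3.16 and -1.44. A test of the difference between the genotypes called 185 genes (0.989%), among them 5 of the shared genes (Igha, Vsig4, Sectm1a, Spem1 and St6galnac2). Without KO vehicle replicates 1 and 2, which left a single vehicle mouse in that genotype, 39 genes were called in the average and 30 were shared. Leaving out KO vehicle replicate 2 alone gave 910 shared genes, and each other library left out singly gave 1047 to 1889.

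**Figure D1:**
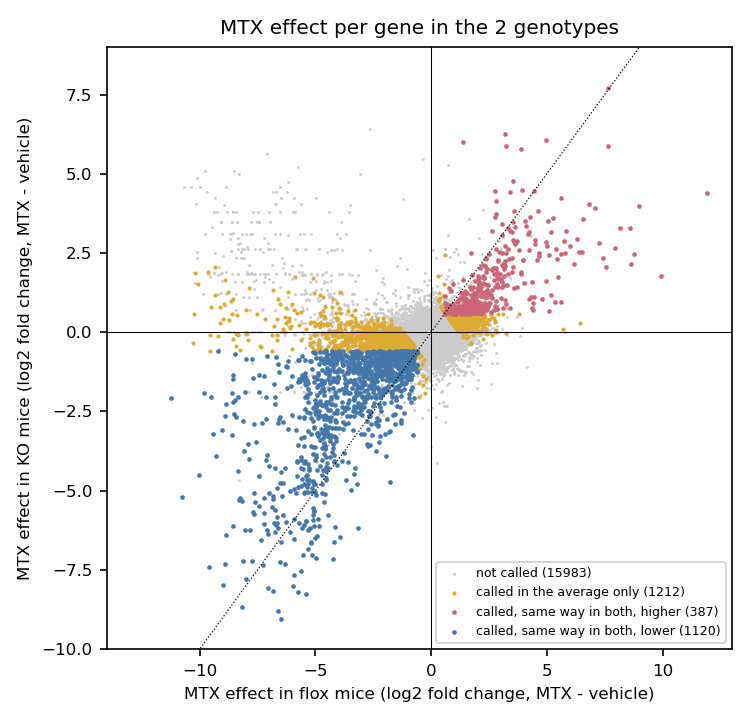
Log2 fold change of MTX against vehicle in flox mice (horizontal axis) and in KO mice (vertical axis) for the 18702 genes tested, 1 point per gene, with 3 mice per group. The 387 shared rises (red) and 1120 shared falls (blue) lie in the upper right and lower left, and the dotted line marks equal effects. The 1212 genes in yellow, labeled as called in the average only, were called but not shared. Of these, 964 had a KO effect of the same sign but under 1.5-fold. Of all 2719 called genes, 2517 were also called in flox mice alone.

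By list medians, immunoglobulin variable genes were the most strongly raised group in both genotypes. Of 133 immunoglobulin genes tested, 96 were called higher, all of them shared, and 0 were called lower. Immunoglobulin genes made up 24.8% of the shared rises and 0.711% of the genes tested. The filter by group admitted genes near 0 with vehicle through their MTX level, so these shares are a description. Igha, the constant region of the IgA heavy chain (chromosome 12, 113254830 to 113260236, minus strand, GRCm38), was at 11.8, 5.39 and 12.9 CPM in flox vehicle mice and at 347, 2970 and 1220 CPM in flox MTX mice. In KO mice it was at 24.7, 15.3 and 29.8 CPM with vehicle and at 190, 154 and 150 CPM with MTX. MTX mice lay above vehicle mice in both genotypes with no overlap, and flox MTX replicate 2 was the highest of all. The averaged log2 fold change of Igha was 5.03 ± 0.50 (SE, adjusted p = 0.00543, edgeR), with 7.24 in flox and 2.82 in KO mice, and this difference between genotypes was itself called (adjusted p = 0.0836, edgeR).

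Jchain, which encodes the chain that joins IgA and IgM into polymers, was at 43.6, 4.09 and 39.0 CPM in flox vehicle mice, 92.3, 933 and 352 CPM in flox MTX mice, 16.4, 19 and 15.5 CPM in KO vehicle mice and 59.4, 148 and 42.7 CPM in KO MTX mice. Its groups did not overlap in either genotype, and the averaged log2 fold change was 3.14 ± 0.65 (SE, adjusted p = 0.0173, edgeR). Of 19 tested plasma cell markers and immunoglobulin constant genes, 13 were called higher, 12 of them shared, and 0 lower. Their list had a median averaged log2 fold change of 2.56 against 0.012 over all genes tested. The plasma cell markers Xbp1, Sdc1, Derl3 and Tnfrsf17 were not among those called. Prdm1, the transcription factor of plasma cell differentiation, rose by a log2 fold change of 1.18 ± 0.29 (SE). Igkc, the kappa light chain constant region, rose by 2.70 ± 0.71 and Ighd, that of IgD, by 2.67 ± 0.65. Ighm, the IgM constant region and the most abundant heavy chain gene under vehicle, was not called (0.50 ± 0.28, adjusted p = 0.26, edgeR).

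The 12 largest rises with separated mice in both genotypes were Igha and 11 variable segments: Ighv1-34, Ighv10-3, Ighv1-81, Ighv5-9, Igkv6-13, Igkv8-30, Ighv5-16, Ighv1-7, Ighv5-6, Ighv9-3 and Ighv5-17. Variable segments encode the antigen-binding end of an antibody, and each B cell clone uses a single heavy and a single light segment. Ighv1-81 was at 0.13, 0.157 and 0.139 CPM in flox vehicle mice and at 3.68, 218 and 2.31 CPM in flox MTX mice. The KO values of Ighv1-81 were 0.605, 0.0423 and 0.422 CPM with vehicle and 5.13, 8.75 and 2.62 CPM with MTX. The spread among MTX mice was wide, with flox MTX replicate 2 far above the rest, as it was for Igkv8-30 (1.32, 171 and 18.6 CPM in flox MTX mice).

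Ighv1-34 had 0 counts in the flox vehicle libraries, and against a limit of 3 counts per library flox MTX mice were at least 174-fold higher. Its counts in KO mice were 30 with MTX and 1 with vehicle (28.2-fold, 95% exact interval 4.69 to 1150, counting error only). Among all heavy chain V segments tested, 40 of 52 were called higher, with 38 of 59 for kappa and 2 of 3 for lambda, and every one of these 80 was also shared. Their medians in the averaged effect were 3.58, 3.15 and 3.61. With segments that had 0 counts in a whole group set at their bound, the heavy and kappa medians were 3.30 and 3.05. Of all 185 heavy and 160 kappa V genes, 107 and 74 had 0 counts in all flox vehicle libraries. The filter worked by group, so a segment near 0 with vehicle could be tested through its MTX level alone. The shares called thus describe segments chosen in part by that level. With at least 10 counts in every library, 0 heavy, 1 kappa and 0 lambda segments were called. With replicate number as a block in the model, 17, 9 and 0 were called. V segments are near-identical in sequence, and how reads were split between copies is not stated, so values of single segments are uncertain. Omitting replicate 2 of KO vehicle or 3 of KO MTX left 23 and 25 heavy chain calls, and omitting replicate 1 or 2 of KO vehicle or 3 of KO MTX left 22, 19 and 21 kappa calls.

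B cell markers rose with a like size in both genotypes but less uniformly between mice. Of 14 markers, 12 were called higher, 11 of them shared, with medians of 2.39 in flox and 1.93 in KO mice. Ms4a1, the gene of the B cell surface protein CD20, was at 6.42, 1.85 and 5.82 CPM in flox vehicle, 2.69, 47.5 and 22.8 CPM in flox MTX, 1.61, 6.10 and 2.48 CPM in KO vehicle and 1.70, 36.7 and 13.1 CPM in KO MTX mice. In each genotype 2 of 3 MTX mice lay above all vehicle mice, and the third, flox MTX replicate 1 and KO MTX replicate 2, lay within their range. Cr2, the complement receptor of mature B cells, rose by an averaged log2 fold change of 3.25 ± 0.78 (SE, adjusted p = 0.0272, edgeR). Cxcl13, the chemokine that draws B cells into follicles, rose by 3.33 ± 0.76 (adjusted p = 0.024, edgeR), with KO MTX mice at 8.35, 68.2 and 25.1 CPM against 2.57, 6.10 and 2.62 CPM under vehicle. The 12 B cell calls became 3 when replicate 3 of flox vehicle was omitted, 5 for replicate 2 of flox MTX, 2, 6 and 6 for replicates 1, 2 and 3 of KO vehicle, and 3 for replicate 3 of KO MTX. The 13 plasma cell calls became 6 for each of these omissions other than replicate 3 of KO vehicle, for which they became 8.

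**Figure D2:**
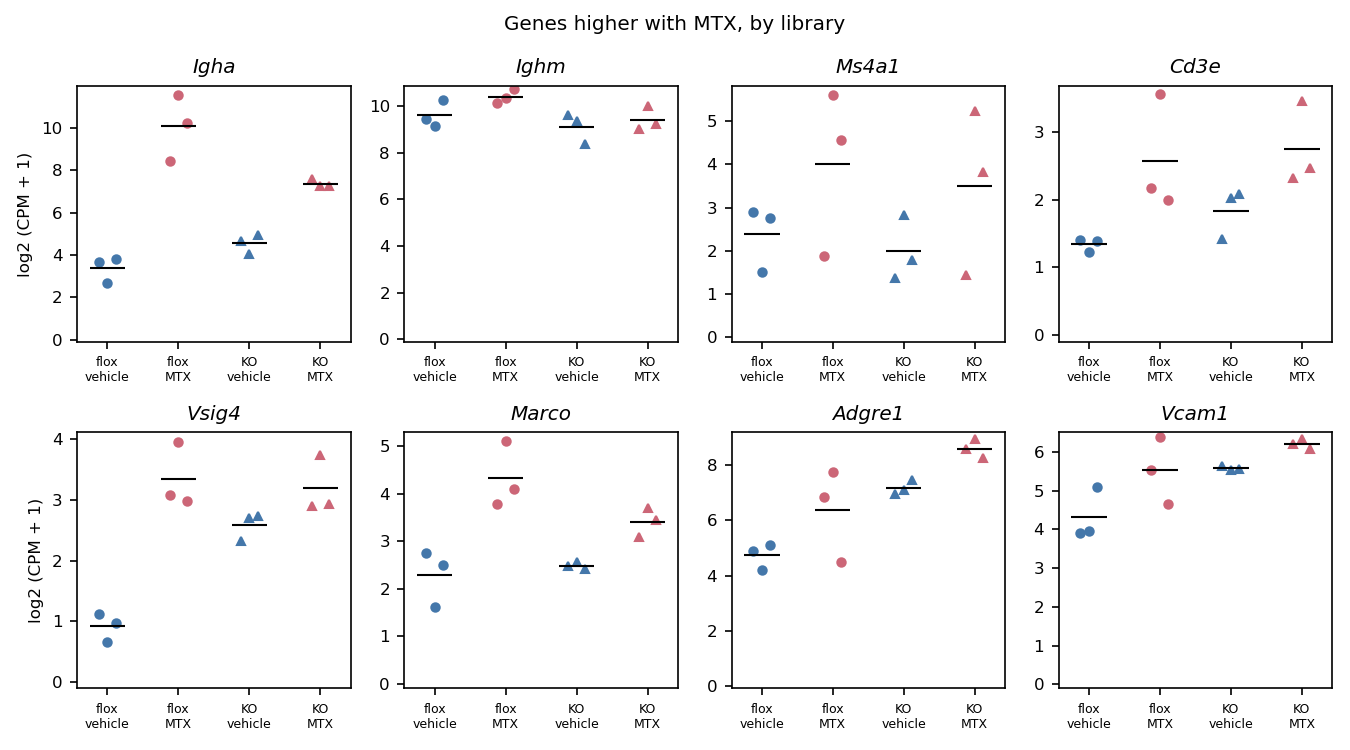
Levels of 8 genes in log2 (CPM + 1), 1 point per mouse and 3 mice per group, with vehicle in blue and MTX in red, flox as circles and KO as triangles, and the group mean as a bar. Igha is separated in both genotypes, Ms4a1 is high in 2 of 3 MTX mice of each genotype, Ighm overlaps, and Adgre1 is higher in KO than in flox mice under either injection.

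T cell genes rose as well. Of 20 T and NK cell markers, 12 were called higher, 7 of them shared, and 1 was called lower (Gata3). Cd3e, a chain of the T cell receptor complex, was at 1.65, 1.34 and 1.62 CPM in flox vehicle, 3.50, 10.8 and 3 CPM in flox MTX, 1.66, 3.05 and 3.23 CPM in KO vehicle and 4, 9.92 and 4.5 CPM in KO MTX mice. The groups did not overlap within either genotype, and the averaged log2 fold change was 1.56 ± 0.37 (SE, adjusted p = 0.0278, edgeR). Tcrg-C1, a constant region of the gamma chain of gamma-delta T cells, rose by 1.89 ± 0.31 (adjusted p = 0.00849, edgeR). Of the 7 T cell receptor constant genes tested, 6 were called higher and 5 were shared. Cd8a rose in the average by 1.39 ± 0.46 but was not shared, with 0.56 in KO mice. Gata3, which is known from T helper cells and also from epithelia, fell by 1.41 on the log2 scale in the average, with -2.98 in flox and 0.15 in KO mice. The 12 T and NK cell calls became 5 when replicate 3 of flox vehicle was omitted, and 3 and 5 for replicates 1 and 2 of KO vehicle.

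Antigen presentation by MHC class II is a function of B cells, dendritic cells and macrophages. Of 12 genes of this pathway, 10 were called higher and 6 were shared. Ciita, its master transcriptional regulator, rose by an averaged log2 fold change of 1.10 ± 0.29 (SE, adjusted p = 0.0406, edgeR), and the structural gene H2-Ab1 by 0.96 ± 0.30 (adjusted p = 0.0674, edgeR). H2-Ob, a subunit of the peptide-loading modulator found in B cells, rose by 2.29 ± 0.64. Of the 10 calls, 4 and 1 were left when replicates 1 and 3 of flox vehicle were omitted, 4 for replicate 2 of flox MTX, 1 and 2 for replicates 1 and 2 of KO vehicle, and 4 and 1 for replicates 2 and 3 of KO MTX.

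Macrophage genes were raised mainly through flox mice, with a minority shared. Of 20 macrophage markers 15 were called higher and 4 were shared, among them Marco, Adgre1 and Mrc1, with medians of 1.89 in flox and 0.49 in KO mice. Marco, a scavenger receptor (chromosome 1, 120474538 to 120505024, minus strand), was at 5.77, 2.05 and 4.62 CPM in flox vehicle, 12.7, 33.6 and 16.1 CPM in flox MTX, 4.53, 4.87 and 4.31 CPM in KO vehicle and 7.53, 11.9 and 9.96 CPM in KO MTX mice. Its averaged log2 fold change was 1.71 ± 0.30 (SE, adjusted p = 0.00977, edgeR) with no overlap in either genotype. Adgre1, the gene of the F4/80 antigen, was at 29.0, 17.3 and 33.7 CPM in flox vehicle, 116, 216 and 21.4 CPM in flox MTX, 125, 136 and 178 CPM in KO vehicle and 391, 497 and 305 CPM in KO MTX mice. KO mice were separated and flox mice were not, since flox MTX replicate 4 lay within the vehicle range.

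Vsig4, a complement receptor of tissue-resident macrophages, was at 1.17, 0.59 and 0.97 CPM in flox vehicle, 7.46, 14.4 and 6.94 CPM in flox MTX, 3.98, 5.51 and 5.62 CPM in KO vehicle and 6.48, 12.3 and 6.64 CPM in KO MTX mice. It rose in the average by 2.07 ± 0.28 (SE, adjusted p = 0.00544, edgeR), and by more in flox than in KO mice (3.39 and 0.75, adjusted p of the difference = 0.0847, edgeR). Siglec1 (1.16 ± 0.26), a sialic acid receptor of resident macrophages, and Cd5l (1.55 ± 0.39), a secreted protein of macrophages, were shared rises with separated mice in both genotypes. Trem2, a lipid receptor of macrophages in obese fat, was called in the average (1.53 ± 0.56, adjusted p = 0.0994, edgeR) but not shared, at 2.74 in flox and 0.32 in KO mice. Of 22 genes of lipid-associated macrophages 5 were called higher and 0 were shared.

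Phagocytosis and Fc receptor genes followed the macrophage markers, with 27 of 39 called higher and 8 shared, and complement genes with 10 of 20 called and 1 shared. Lyn, a kinase of B cell and Fc receptor signaling, rose by 0.84 ± 0.18 (SE) with separated mice in both genotypes. C3, the central complement component, rose in the average by 1.24 ± 0.29 but reached 0.55 in KO mice. Lysosomal genes had 9 of 36 called higher and 1 shared. The 15 macrophage calls became 9 and 7 when replicates 1 and 3 of flox vehicle were omitted, 5 for either of replicates 1 and 2 of KO vehicle, and 8 for replicate 3 of KO MTX. The 27 phagocytosis calls became 11 and 5, 2, and 9 under the same omissions, and 14 and 15 for replicate 2 of flox MTX and of KO MTX. The 10 complement calls became 4 for replicate 3 of flox vehicle, replicates 1 and 2 of KO vehicle or replicate 3 of KO MTX. Single omissions left 2 to 17 of the 9 lysosomal calls and 0 to 13 of the 5 calls of lipid-associated macrophages, in both cases with the highest count for replicate 4 of flox MTX.

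Other myeloid lists gave smaller counts. Monocyte and neutrophil markers had 5 of 12 called higher and 3 shared, and dendritic cell markers 4 of 10 and 2. Over the single omissions of a library these were 2 to 7 and 1 to 4 calls. Summed monocyte and neutrophil markers were lower in flox MTX (67.8 to 239 CPM) than in flox vehicle libraries (300 to 401 CPM). In KO mice the sums were 131 to 171 CPM with MTX and 98.2 to 143 CPM with vehicle. Gene by gene the flox direction was the reverse of the sum, with 11 of the 12 tested members positive and a median of 1.58. In KO mice 10 were positive, with a median of 0.51. Averaged log2 fold changes in this list ran from -1.44 to 4.92. S100a9, a calcium-binding protein of neutrophils and monocytes, was called (adjusted p = 0.0204, edgeR), with 0.283, 31.0 and 9.63 CPM in flox MTX mice against 0 to 0.391 CPM under vehicle. Its KO values were 0.565, 2.17 and 2.71 CPM with MTX against 0.234 to 0.453 CPM with vehicle. EdgeR called 0 of 10 mast cell markers, 0 of 8 tested red blood cell markers and 0 of 11 tested skeletal muscle markers. At an unadjusted p below 0.05 these lists held 1, 3 and 1 higher and 0, 0 and 1 lower genes, and DESeq2 called 1 higher, 5 higher and 1 lower. Summed red blood cell markers ranged from 75.7 to 148 CPM in flox vehicle, 139 to 1143 in flox MTX, 60.9 to 579 in KO vehicle and 141 to 512 in KO MTX libraries. Their part in the lymphocyte result was not tested.

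Among the molecules that recruit leukocytes, 9 of 20 adhesion genes were called higher and 4 were shared, and 16 of 45 chemokines and receptors were called higher and 9 shared. Vcam1, the vascular ligand of integrin alpha 4, was at 14.0, 14.5 and 32.9 CPM in flox vehicle, 45.3, 82.2 and 24.2 CPM in flox MTX, 48.7, 45.6 and 45.9 CPM in KO vehicle and 72.4, 79.9 and 66.0 CPM in KO MTX mice. It rose by an averaged log2 fold change of 0.97 ± 0.29 (SE, adjusted p = 0.0544, edgeR) and was shared, with separation in KO mice and overlap in flox mice. The call was lost when replicate 1 or 3 of flox vehicle, 1 or 2 of KO vehicle, or 3 of KO MTX was omitted, with a log2 fold change of 0.87 to 0.98 in these fits. Icam1, another endothelial and leukocyte adhesion molecule, was called in the average (0.61 ± 0.22, adjusted p = 0.0959, edgeR) but was not shared, with 0.21 in KO mice. Sele, the endothelial E-selectin, did not pass the filter on low counts.

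Itga4, the integrin partner of Vcam1, rose by 1.26 ± 0.36 (SE) and was shared. Cxcr6, a receptor of tissue-resident T and NK cells, was at 1.30, 1.06 and 0.739 CPM in flox vehicle, 2.13, 8.95 and 3.19 CPM in flox MTX, 1.41, 1.91 and 1.78 CPM in KO vehicle and 3.65, 3.94 and 3.63 CPM in KO MTX mice. It rose by 1.67 ± 0.34 (adjusted p = 0.0157, edgeR) without overlap in either genotype. Ccr6, a receptor of B cells and some T cells, rose by 3.47 ± 0.82 (adjusted p = 0.0264, edgeR). Ackr4, a scavenging receptor for homeostatic chemokines, fell by 1.66 on the log2 scale in the average (SE 0.29, adjusted p = 0.00979, edgeR) and was the 1 member of the list called lower. The 9 adhesion calls became 3 and 2 when replicates 1 and 3 of flox vehicle were omitted, 1 and 2 for replicates 1 and 2 of KO vehicle, and 2 for replicate 3 of KO MTX. The 16 chemokine calls became 10 and 8, 6 and 7, and 7 under the same omissions, 10 for replicate 2 of flox MTX and 9 for replicate 2 of KO MTX.

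Inflammatory cytokines and their receptors had 9 of 35 called higher and 3 shared, with 1 called lower (Ptgs2), and interferon-stimulated genes had 9 of 32 called higher and 2 shared. Medians of the cytokine list were 0.82 in flox and 0.17 in KO mice, and those of the interferon list 0.82 and 0.15. Summed interferon-stimulated genes were at 713 to 1586 CPM in flox vehicle and 1064 to 1660 in flox MTX libraries. In KO libraries they were at 1367 to 1712 CPM with vehicle and 1127 to 1509 with MTX. Tnf was called in the average (1.06 ± 0.38 SE, adjusted p = 0.0908, edgeR) without being shared, at 1.87 in flox and 0.26 in KO mice. Tnfrsf1b, a TNF receptor of leukocytes, was a shared rise of 1.09 ± 0.28. Ptgs2, the inducible cyclooxygenase, fell by 0.91 on the log2 scale (SE 0.30). Ccl2, the chemokine that recruits monocytes, was at -0.039 ± 0.39 (adjusted p = 0.963, edgeR). The 1 cytokine gene called lower became 0 in 10 of the 12 single omissions of a library. NF-kappaB subunits and inhibitors had 3 of 20 called higher and 2 shared, which became 0 called when replicate 3 of flox vehicle, 1 or 2 of KO vehicle, or 3 of KO MTX was omitted, 1 for replicate 2 of flox MTX, and 0 when scaled by library size alone. The 9 cytokine calls became 5 and 2 when replicates 1 and 3 of flox vehicle were omitted, 1 for either of replicates 1 and 2 of KO vehicle and 3 for replicate 3 of KO MTX, and the 9 interferon calls became 5 for replicate 1 of KO vehicle.

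Several shared rises outside the leukocyte lists had nearly equal sizes in both genotypes. Wnt2b, a secreted Wnt ligand (chromosome 3, 104945272 to 104961921, minus strand), was at 4.25, 4.13 and 3.74 CPM in flox vehicle, 9.02, 13.3 and 8.94 CPM in flox MTX, 3.63, 4.45 and 4.73 CPM in KO vehicle and 6.92, 14.4 and 8.70 CPM in KO MTX mice. It was separated in both genotypes and rose by 1.30 ± 0.20 (SE, adjusted p = 0.00716, edgeR), with 1.36 in flox and 1.23 in KO mice. Plekhb2, a membrane-bound pleckstrin homology protein, rose by 0.86 ± 0.15 (adjusted p = 0.00987, edgeR), with 0.86 and 0.87. Tlr9, the endosomal receptor for unmethylated DNA, rose by 1.51 ± 0.31, with 1.38 and 1.65.

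Mmp3, a matrix metalloproteinase, rose by 2.07 ± 0.44 (SE), with mice separated in both genotypes and with levels of 0.826 to 1.29 CPM in flox vehicle and 19.6 to 42.4 CPM in KO vehicle mice. Art2b, an ADP-ribosyltransferase of T cells, rose by 3.72 ± 0.82 with sizes of 3.60 and 3.84, at levels of 0 to 2.36 CPM. The matrix protease list had 4 of 31 called higher and 2 shared, with 1 to 10 calls over the single omissions of a library.

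Mir142b was among the shared rises, at a chromosome 11 locus of hematopoietic cells that encodes miR-142. The sequences are shown because the annotated miRNAs lie on opposite strands of the same bases, which bears on what the count measures. They were taken from RefSeq (GRCm38.p6), with the seed, bases 2 to 8, in capitals. The miR-142a strands lie on the plus strand at chr11:87756867-87756887 and chr11:87756903-87756925, and miR-142b lies on the minus strand at chr11:87756906-87756925.
mmu-miR-142a-5p: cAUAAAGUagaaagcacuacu
mmu-miR-142a-3p: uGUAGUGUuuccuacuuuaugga
mmu-miR-142b: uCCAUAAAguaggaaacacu
All 20 bases of miR-142b are the reverse complement of a run within miR-142a-3p. The count table assigned 10 to 14 reads to Mir142b in flox vehicle, 37, 95 and 13 in flox MTX, 20, 31 and 26 in KO vehicle and 64, 92 and 60 in KO MTX libraries, and 0 reads to Mir142 in all 12. In CPM the mice were separated in both genotypes, and the averaged log2 fold change was 1.73 ± 0.37 (SE, adjusted p = 0.0186, edgeR). The host transcript Mir142hg, on the plus strand across the same bases, was called in the average (1.08 ± 0.32, adjusted p = 0.0553, edgeR) but was not shared, with 0.52 in KO mice. Without a stated strand setting, reads of the host transcript and of the antisense miRNA gene cannot be told apart, and long-RNA libraries do not measure mature miRNAs.

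Most markers of motile cilia and epithelium were shared falls. Among the 12 largest with separated mice in both genotypes were Cfap65, Ccdc153, Cdhr5, Fermt1, Defb29, Kl, Mmp7, Cdh16, Pdzk1, Hnf4a and Foxj1. For Foxj1, Cfap65, Kl, Hnf4a, Mmp7 and Cdh16 the separation in KO mice was narrow, since KO vehicle replicate 3 lay near the MTX mice. Of 16 markers of motile cilia and epithelium, 12 were called lower (10.1% of all genes tested were) and 11 were shared, with medians of -4.59 in flox and -2.18 in KO mice. The count lay between 10 and 13 when any of the 12 libraries was left out, and was 2 without KO vehicle replicates 1 and 2.

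Foxj1, the master transcription factor of motile cilia (chromosome 11, 116330704 to 116335399, minus strand), was at 28.4, 16.6 and 19.1 CPM in flox vehicle mice and at 0.0945, 0.136 and 0.438 CPM in flox MTX mice. In KO mice it was at 11.3, 16.5 and 0.281 CPM with vehicle and at 0.174, 0.0867 and 0.219 CPM with MTX. KO vehicle replicate 3 was thus close to the MTX mice, and KO vehicle replicates 1 and 2 lay just below the flox vehicle mice. The averaged log2 fold change of Foxj1 was -6.23 ± 0.82 (SE, adjusted p = 0.00544, edgeR), and it was -6.65 to -5.88 with any single library left out.

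Cfap65, a protein of the ciliary and flagellar axoneme, was at 41.9, 28.6 and 20.8 CPM in flox vehicle, 0.0472, 0 and 0.0625 CPM in flox MTX, 16.1, 23.8 and 0.234 CPM in KO vehicle and 0, 0.0433 and 0.175 CPM in KO MTX mice. The flox counts of Cfap65 were 2 with MTX and 2142 with vehicle (903-fold lower, 95% exact interval 250 to 7460, counting error only). Dnah5, a heavy chain of the outer dynein arm, had 0 counts in all KO MTX libraries and in KO vehicle replicate 3, and KO MTX mice were at least 11.8-fold lower than KO vehicle mice. Defb29, an epididymal beta-defensin, differed from these in its order, with 1.65, 29.6 and 0.462 CPM in flox vehicle mice, the highest being replicate 3.

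Mmp7, a metalloproteinase of glandular epithelium, was at 47.9, 22.1 and 38.1 CPM in flox vehicle, 0.283, 0 and 0.0625 CPM in flox MTX, 8.06, 11.6 and 0.281 CPM in KO vehicle and 0.087, 0.26 and 0.131 CPM in KO MTX mice. Hnf4a, a nuclear receptor of liver, kidney and gut epithelium (chromosome 2, 163506808 to 163572910, plus strand), was at 11.3, 5.35 and 7.43 CPM in flox vehicle mice and at 0.0945, 0.0454 and 0.0625 CPM in flox MTX mice. Its KO values were 3.53, 3.09 and 0.0937 CPM with vehicle and 0, 0 and 0.0874 CPM with MTX. The values under MTX and that of KO vehicle replicate 3 lay below the limit of 3 counts in each library.

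Kl, the gene of Klotho, a co-receptor for a fibroblast growth factor in renal epithelium, had 0 counts in all KO MTX libraries. KO MTX mice were at least 4.09-fold lower than KO vehicle mice at 0.705, 0.847 and 0.0469 CPM. The last of these values, of KO vehicle replicate 3, lay below the limit of 3 counts. The intestinal and renal brush border gene Cdhr5 had 0 counts in the flox MTX libraries and was at least 63.1-fold lower there than with vehicle.

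The position of KO vehicle replicate 3 held over the shared falls at large. It was the lowest of the KO vehicle mice for 893 of the 1120 genes (79.7%), against 37.6% of all genes tested, while flox vehicle replicate 4 was the lowest flox vehicle mouse for 63.3%, against 38.1%. Summed cilia and epithelium markers were at 381, 932 and 240 CPM in flox vehicle, 41.8, 23.4 and 16.0 CPM in flox MTX, 55.6, 69.3 and 16.9 CPM in KO vehicle and 13.4, 14.6 and 13.1 CPM in KO MTX libraries. Summed epididymis markers overlapped between KO vehicle (48.1 to 57.9 CPM) and KO MTX libraries (38.3 to 54.5 CPM). Of these 45 genes 5 were at 0 in all KO vehicle libraries and 12 in all KO MTX libraries. Gene by gene, the 27 tested had medians of -4.75 in flox and -0.95 in KO mice, and 3 were positive in KO mice. Of 27 epididymis markers tested 4 were called lower and 2 were shared, and the count of 4 was 17 once replicate 1 of flox MTX was omitted and 2 to 6 after any other single omission. The 24 testis germ cell markers had 15 called lower and 1 shared, with medians of -6.16 in flox and 0.64 in KO mice. Adam7, an epididymal membrane protein, was at 598, 1610 and 244 CPM in flox vehicle mice, 64.3 CPM in flox MTX replicate 1 and 0.0874 to 2.5 CPM in the other 8 libraries. The part of RNA from adjoining tissue in the shared falls was not tested.

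**Figure D3:**
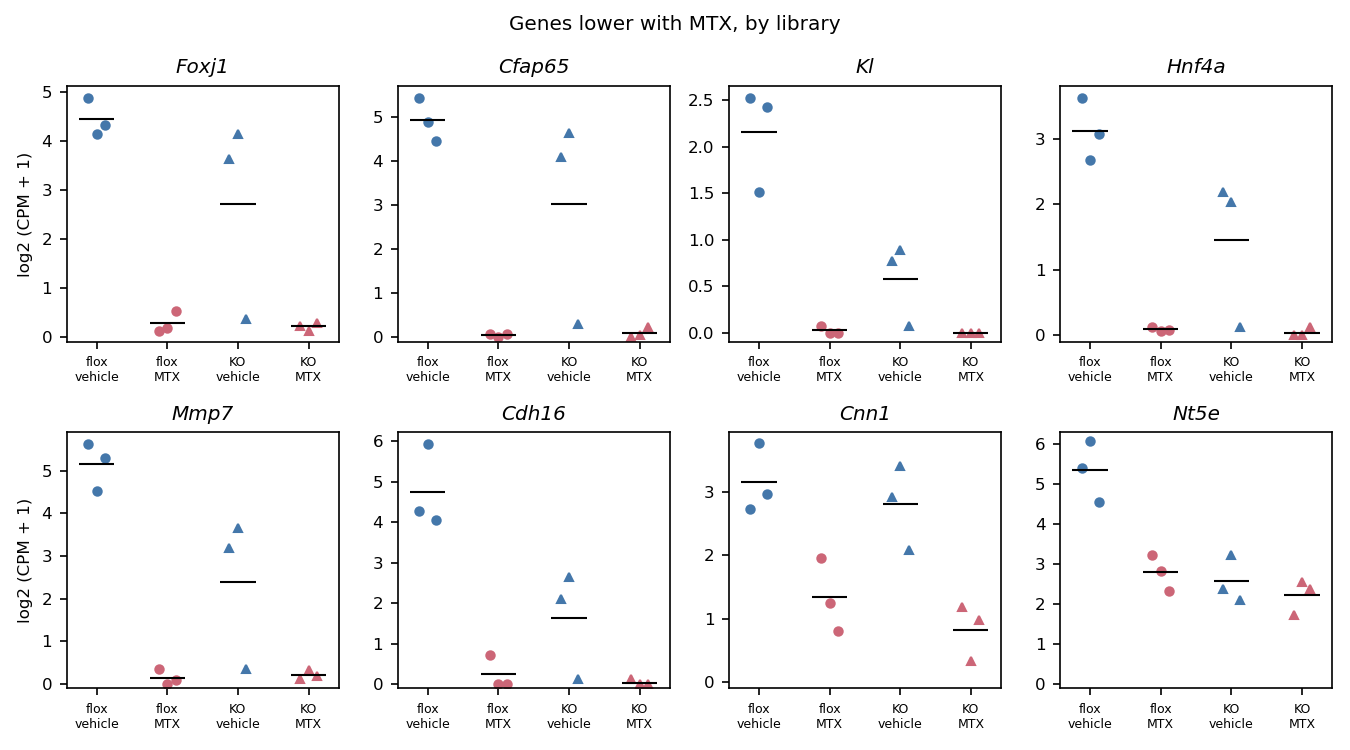
Levels of 8 genes in log2 (CPM + 1), 1 point per mouse and 3 mice per group, with vehicle in blue and MTX in red, flox as circles and KO as triangles, and the group mean as a bar. In Foxj1, Cfap65, Kl, Hnf4a, Mmp7 and Cdh16 the KO vehicle group holds 2 high mice and 1 near the MTX mice, whereas all 3 KO vehicle mice lie above the KO MTX mice for Cnn1, and Nt5e differs mainly within flox mice.

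Epcam, an epithelial adhesion molecule, was at 90.7, 242 and 43.9 CPM in flox vehicle, 9.54, 2.36 and 0.813 CPM in flox MTX, 4.23, 6.10 and 0.515 CPM in KO vehicle and 0.304, 1.08 and 0.262 CPM in KO MTX mice. Its averaged log2 fold change was -3.79 ± 0.75 (SE, adjusted p = 0.0148, edgeR). The keratins Krt8 (-2.52 ± 0.45) and Krt18 (-2.28 ± 0.47), which also mark mesothelium, were shared falls. By contrast 5 of the 14 mesothelium markers were called higher and 0 of these were shared, for example Upk3b, at 1.06 ± 0.24 in the average and 0.22 in KO mice. The 5 mesothelium rises became 9 when replicate 4 of flox vehicle was omitted and 3 for replicate 1 of KO vehicle or 3 of KO MTX.

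Of 12 pericyte and smooth muscle markers 4 were called lower and 2 were shared (Cnn1 and Myh11), with list medians of -0.08 in flox and -0.38 in KO mice. KO vehicle replicate 3 was the lowest KO vehicle mouse for Cnn1, Myh11 and Col4a4, and it lay above all KO MTX mice. Cnn1, the calponin of contractile smooth muscle (chromosome 9, 22099216 to 22109630, plus strand), was at 5.60, 12.6 and 6.83 CPM in flox vehicle, 2.88, 1.36 and 0.75 CPM in flox MTX, 6.60, 9.66 and 3.23 CPM in KO vehicle and 1.26, 0.26 and 0.961 CPM in KO MTX mice. The mice were separated in both genotypes, and the averaged log2 fold change was -2.64 ± 0.46 (SE, adjusted p = 0.00977, edgeR). Myh11, smooth muscle myosin, fell by 1.27 on the log2 scale (SE 0.34, adjusted p = 0.0408, edgeR), with -1.30 in flox and -1.23 in KO mice, and lost its call without KO vehicle replicate 2. The 4 calls of this list became 1 when replicate 2 of KO vehicle was omitted and 2 for replicate 3 of flox vehicle, 4 of flox MTX, 1 of KO vehicle, or 2 or 3 of KO MTX.

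The neighboring collagen IV genes Col4a3 and Col4a4, which form a basement membrane network known from kidney, were the 2 shared falls among 26 collagens, of which 3 were called lower (10.1% of all genes tested were) and whose median averaged log2 fold change was 0.27. Col4a4 was at 11.8, 22.5 and 22.9 CPM in flox vehicle, 6.47, 3.68 and 5.38 CPM in flox MTX, 5.84, 8.68 and 3.42 CPM in KO vehicle and 1.70, 1.34 and 2.45 CPM in KO MTX mice. The groups were separated in both genotypes, and the averaged log2 fold change was -1.79 ± 0.28 (SE, adjusted p = 0.00729, edgeR), close to that of Col4a3 at -1.73 ± 0.28. Bmp7, a ligand of the TGF-beta superfamily expressed in epithelia, fell by 1.11 on the log2 scale (SE 0.23) and was shared. Of 33 genes of TGF-beta signaling, 2 were called higher, 2 lower and 1 was shared. Nerve and Schwann cell markers had 2 of 9 called lower and 1 shared. Endothelial markers had 1 of 20 called higher (Lyve1, 5.0% against 4.42% of all genes tested) and 0 shared. Their medians were 0.10 in flox and -0.37 in KO mice, with 15 of 20 positive in flox and 0 in KO mice. Fibroblast and progenitor markers had 3 of 18 called higher and 0 shared. The fibroblast count was 0 in 6 of the 12 single omissions of a library and 8 when replicate 4 of flox vehicle was omitted, and DESeq2 called 7. The call of Lyve1 was lost when replicate 2 of KO vehicle was omitted.

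**Figure D4:**
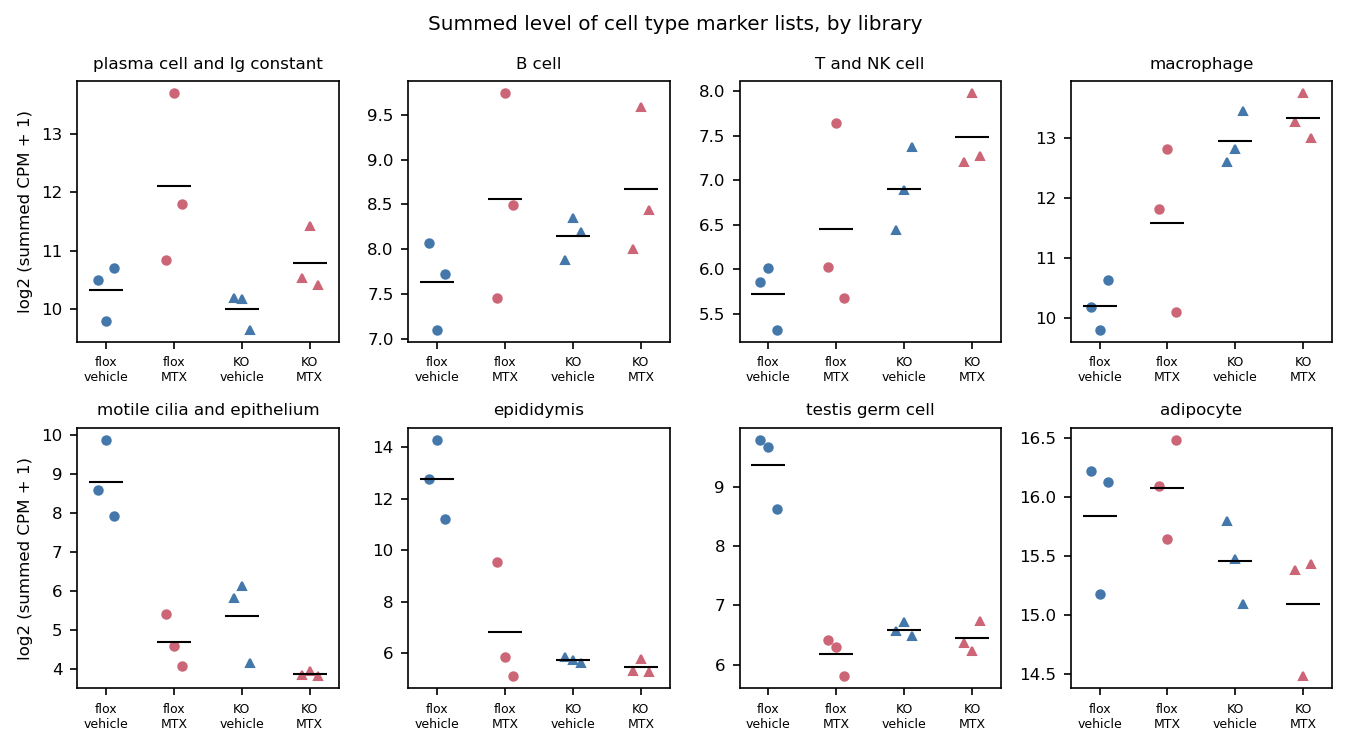
Summed level of 8 marker lists as a share of all counts, in log2 (summed CPM + 1), 1 point per mouse and 3 mice per group, with vehicle in blue and MTX in red, flox as circles and KO as triangles, and the mean of the log2 values as a bar. The immunoglobulin list is separated in both genotypes, the cilia list is lower with MTX in both genotypes without overlap, by little for KO vehicle replicate 3, and the epididymis and testis lists are high mainly in flox vehicle mice.

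Transcripts of the drug targets Tyms and Atic were not called, and among its transporters there was 1 shared fall. Tyms, thymidylate synthase, was at an averaged log2 fold change of 0.39 ± 0.15 (SE, adjusted p = 0.112, edgeR), with 0.88 in flox and -0.091 in KO mice. Atic was at 0.34 ± 0.16 (adjusted p = 0.185, edgeR), and Slc19a1, the reduced folate carrier through which MTX enters cells, at 0.087 ± 0.22 (adjusted p = 0.833, edgeR). Folr2, the folate receptor of macrophages, was called higher in the average at 1.21 ± 0.41 (adjusted p = 0.0813, edgeR), with 2.10 in flox and 0.31 in KO mice, and it was the 1 of 13 transport genes called higher, a call that was lost in 8 of the 12 single omissions of a library and when scaled by library size alone. Slco1a4, an organic anion transporter, was the 1 called lower and was shared, at -1.52 ± 0.41 (adjusted p = 0.0415, edgeR) and at levels of 0.0437 to 0.6 CPM, and its call was lost when replicate 2 of KO vehicle was omitted.

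Of 20 folate cycle genes 6 were called lower (Mthfd1l, Mthfd2, Gldc, Fpgs, Amt and Mthfd2l), 30.0% against 10.1% of all genes tested. Of these 0 were shared, and 0 genes of the list were called higher. Mthfd2, a mitochondrial folate enzyme, was at 78.5, 168 and 38.2 CPM in flox vehicle, 28.0, 14.5 and 14.0 CPM in flox MTX, 23.1, 22.7 and 29.8 CPM in KO vehicle and 32.7, 21.9 and 24.9 CPM in KO MTX mice. Its average of -1.13 ± 0.32 (SE, adjusted p = 0.0474, edgeR) came from -2.34 in flox and 0.071 in KO mice, and flox vehicle replicate 3, the library with the most epididymis RNA, was the highest. The 6 calls became 3 when replicate 3 of flox vehicle was omitted, 2 for either of replicates 1 and 2 of KO vehicle, and 2 and 3 for replicates 2 and 3 of KO MTX. In purine and pyrimidine synthesis 3 of 26 genes were called lower (Cad, Prps2 and Pfas), 11.5% against 10.1% of all genes tested. The 3 falls became 1 without replicate 3 of flox vehicle or 1 or 2 of KO vehicle. They became 1 for each KO MTX library omitted and 0 with replicate number as a block. Called higher was 1 gene (3.85%, against 4.42% of all genes tested), and only this rise was shared. That gene, Dck, the kinase that salvages deoxycytidine (chromosome 5, 88764996 to 88783281, plus strand), was at 7.81, 8.93 and 11.5 CPM in flox vehicle, 18.3, 20.5 and 13.4 CPM in flox MTX, 16.6, 15.1 and 19.4 CPM in KO vehicle and 26.1, 27.3 and 25 CPM in KO MTX mice. It rose by 0.75 ± 0.14 (adjusted p = 0.0116, edgeR), separated in both genotypes.

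Among 17 genes of adenosine production, reception and removal, 1 was called higher (Ada, adenosine deaminase, 0.66 ± 0.23 SE) and 1 lower (Nt5e), and 0 were shared. The call of Ada was lost in 10 of the 12 single omissions of a library, and that of Nt5e in 0. Nt5e, the ectoenzyme CD73 that forms adenosine from AMP, was at 41.5, 66.0 and 22.5 CPM in flox vehicle, 8.31, 6.04 and 4.06 CPM in flox MTX, 4.23, 8.34 and 3.33 CPM in KO vehicle and 2.31, 4.85 and 4.24 CPM in KO MTX mice. Flox mice were separated, KO mice overlapped, and the average of -1.65 ± 0.33 (adjusted p = 0.0156, edgeR) combined -2.81 and -0.48. Adora3, the A3 adenosine receptor, was at 0.37 ± 0.29 (adjusted p = 0.44, edgeR), at levels of 0.236 to 1.21 CPM.

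Of 34 mitosis genes 7 were called higher (20.6%, against 4.42% of all genes tested), 0 were called lower and 1 was shared, with a median averaged log2 fold change of 0.49. DESeq2 called 10 of them higher, and library size as the only scaling left 1. Of 34 genes of DNA replication 3 were called higher and 0 shared, a count of 1 to 6 over the single omissions of a library, and of 30 p53 targets 2 were called higher, 1 lower and 1 was shared. Ccna2, the cyclin of S phase and mitosis entry, was the shared mitosis gene, at 0.80 ± 0.21 (SE, adjusted p = 0.0349, edgeR), with separation in both genotypes. Perp, a p53 target of epithelial junctions, fell by 1.62 on the log2 scale (SE 0.26, adjusted p = 0.00838, edgeR). Cdkn1a, the p53-induced cell cycle inhibitor, was not called (0.56 ± 0.25, adjusted p = 0.159, edgeR). The 7 mitosis calls ranged from 2 to 15 over the single omissions, with 15 for replicate 4 of flox vehicle, 13 for replicate 3 of KO vehicle, 4 for replicates 1 and 3 of flox vehicle and 1 and 2 of flox MTX, and 2 for replicates 1 and 2 of KO vehicle and 2 and 3 of KO MTX.

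In contrast to the immune and epithelial genes, the adipocyte programme showed hardly any calls. Of 20 adipocyte markers, 20 adipogenic transcription factors, 16 adipokines and 39 nuclear genes of the respiratory chain, edgeR called 0 in the averaged effect, and at an unadjusted p below 0.05 these lists held 0, 0, 1 and 0 genes. DESeq2 called 0, 0, 1 and 0 of them. Adipoq, the gene of adiponectin, was at 3220, 1080 and 2190 CPM in flox vehicle, 2210, 1860 and 3620 CPM in flox MTX, 1800, 1240 and 726 CPM in KO vehicle and 1020, 375 and 1130 CPM in KO MTX mice. Its averaged log2 fold change was -0.17 ± 0.36 (SE, adjusted p = 0.801, edgeR), and that of Lep, the gene of leptin, 0.42 ± 0.36 (adjusted p = 0.482, edgeR). Pparg, the nuclear receptor of adipocyte differentiation, was at 0.025 ± 0.22 and Plin1, the lipid droplet protein, at -0.017 ± 0.30. The medians of the adipocyte list were 0.28 in flox and -0.30 in KO mice, with 18 and 1 of 20 positive. Adipokines had medians of 0.28 and -0.42, with 12 and 3 of 16 positive. For the respiratory chain the medians were 0.33 and -0.18, with 37 and 6 of 39 positive. Those of the adipogenic transcription factors were 0.20 and -0.14, with 13 and 4 of 20 positive.

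Other metabolic lists had few calls, of which those of Ppargc1a, Idi1 and Plin2 were lost in 10, 9 and 8 of the 12 single omissions of a library, and 0 shared genes. They were lipid droplet and lipolysis (2 of 25 higher, among them Plin2), lipogenesis (1 of 21 lower, Fads2), fatty acid uptake and oxidation (1 of 32 lower, Ppargc1a), cholesterol synthesis (1 of 24 higher, Idi1), insulin signaling and glucose uptake (1 of 30 lower, Slc2a3), thermogenic genes (2 of 13 lower), the integrated stress response (1 of 24 lower, Mthfd2) and glutathione and oxidative stress genes (2 of 24 lower, Nqo1 and Gpx3). For immediate early genes edgeR called 0 of 24, with 6 at an unadjusted p below 0.05, all higher, and DESeq2 called 4. Heat shock proteins had 1 of 15 called higher and shared (Hsph1, a chaperone, 0.60 ± 0.15 SE) and 1 lower (Hspa1b). Hsph1 lost its call without replicate 1 or 3 of flox vehicle, 2 of KO vehicle, 4 of flox MTX or 2 of KO MTX. The count of lower genes was 0 in most single omissions, and both counts were 0 with replicate number as a block. Clock genes had 1 of 19 called higher and 3 lower, of which the output transcription factors Hlf (-1.16 ± 0.30) and Dbp (-0.78 ± 0.28) were shared, and the time of tissue collection is not stated.

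**Figure D5:**
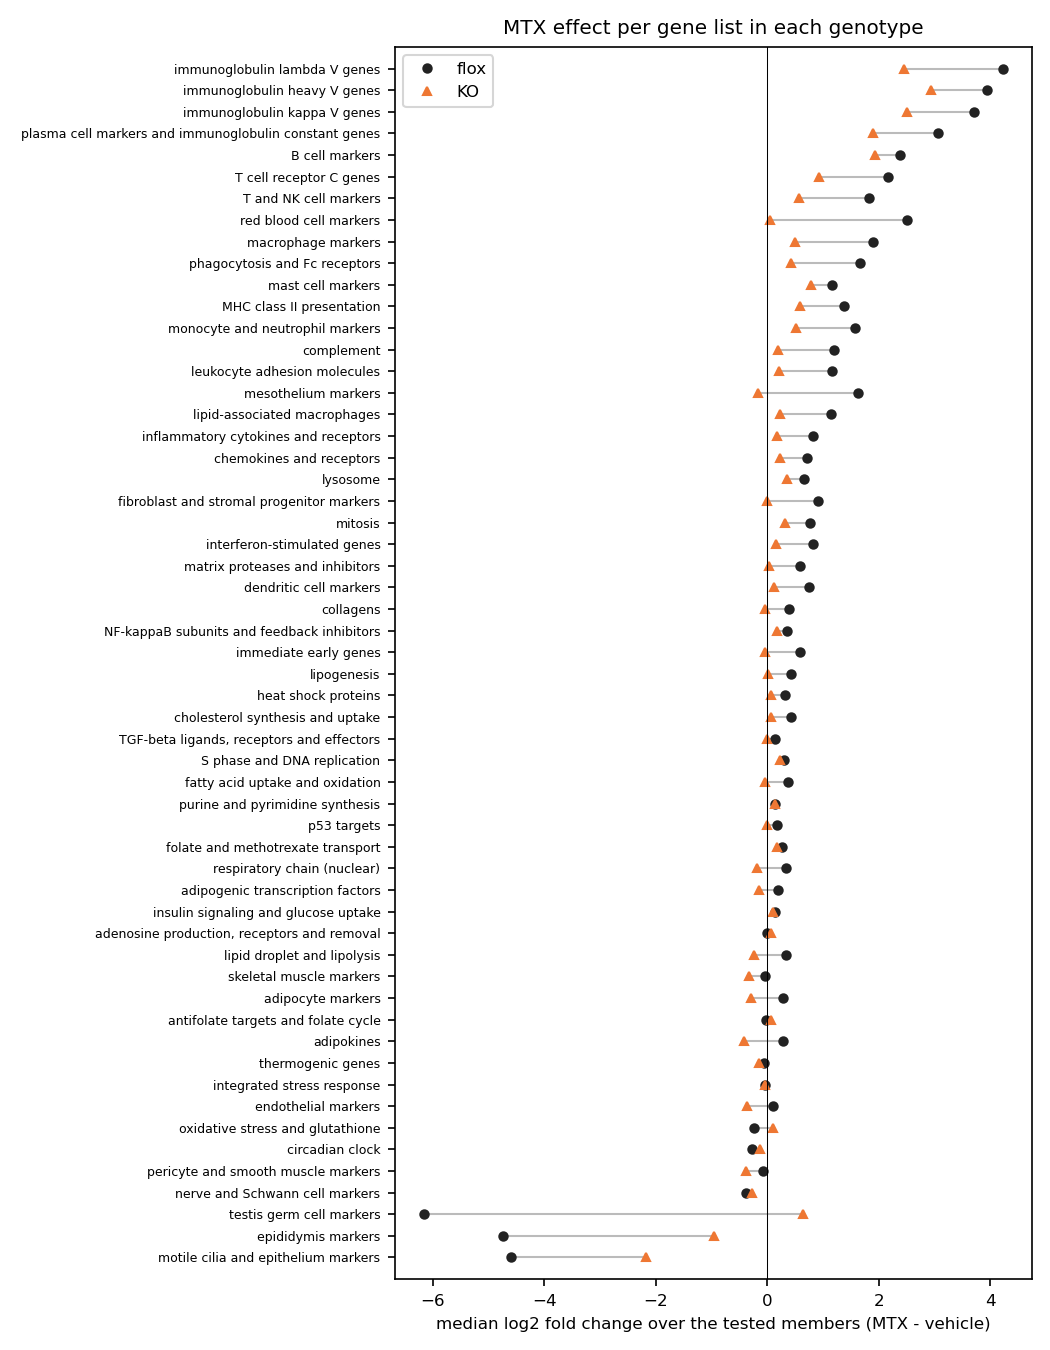
Median log2 fold change of MTX against vehicle over the tested members of each gene list in flox (circles) and KO mice (triangles), ordered by the median averaged effect. Immunoglobulin, B cell and T cell lists are positive in both genotypes. Cilia and epithelium markers and epididymis markers are negative in both, and testis germ cell markers are negative in flox mice only. Adipocyte markers and adipokines are positive in flox (0.28 for each) and negative in KO mice (-0.30 and -0.42).

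For the 16 genes of the drug pathway, vascular activation and adipose inflammation named in every case, an exact permutation test (two-sided, 400 arrangements of the labels within genotype, smallest possible p = 0.005) was run on log2 (CPM + 1). Exact p was 0.01 for Vcam1, 0.015 for Adgre1, 0.03 for Nt5e, 0.045 for Icam1 and 0.05 for Atic, and after Benjamini-Hochberg adjustment over the 16 genes it was 0.12, 0.12, 0.147, 0.147 and 0.147, so that 0 of them passed an adjusted p of 0.1. For Tnf the exact permutation p was 0.055. Lgals3, a galectin of macrophages, was at 0.65 ± 0.37 in the edgeR fit (SE, adjusted p = 0.271), with an exact permutation p of 0.3.

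The average did not stand for both genotypes in genes that were high only in flox vehicle mice. The 5 genes called in the average with the largest estimated difference between the genotypes were Prr30, Rimbp3, Sycp1, Tnp1 and Gm7444, of which Sycp1 encodes a protein of the meiotic synaptonemal complex and Tnp1 a transition protein of spermatid chromatin. Tnp1 was at 27.0, 31.5 and 17.5 CPM in flox vehicle mice, at 0 to 0.0625 CPM in flox MTX mice, at 0 to 0.0937 CPM in KO vehicle mice and at 0 to 0.699 CPM in KO MTX mice. Its flox counts were 2 with MTX and 1803 with vehicle (760-fold lower, 95% exact interval 210 to 6280, counting error only), and the difference between genotypes was called (adjusted p = 0.0262, edgeR). It was also called for Prr30, Rimbp3 and Sycp1, and not for Gm7444 (adjusted p = 0.142, edgeR). Sycp1 had 0 counts in the flox MTX libraries and was at least 29.8-fold lower there than with vehicle. In the KO libraries all 5 genes were at 0 to 0.699 CPM.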

How the data were processed

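RNA of eWAT from 12 mice was sequenced, and the authors deposited a single table of raw gene counts, made by trimming with Trimmomatic (0.36), alignment to GRCm38 with STAR (2.5.2b) and counting with featureCounts of Subread (1.5.2). The labels give polyA RNA and the methods describe removal of ribosomal RNA, and they also differ in read length, so what was captured of transcripts without a poly(A) tail is uncertain. Strand and multimapping settings are not given in the sources used here, so genes with near-identical copies and overlapping antisense genes are uncertain. Of 49315 gene IDs, 48970 matched a symbol.

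Counts were filtered with filterByExpr by group (18702 genes kept), scaled by TMM and fitted with 4 group coefficients in edgeR (4.0.16, R 4.3.3). The quasi-likelihood test was applied to the mean of the 2 MTX effects, to each effect and to their difference. Genes were called where they moved at least 1.5-fold with a p, adjusted after Benjamini and Hochberg, below 0.1. Replicates are numbered mice, and the main model did not treat equal numbers as pairs. The test was checked on simulated counts with known changes. DESeq2 (1.42.0), other scalings, filters, limits and models, and the omission of each library, were alternatives.

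Gene lists and named genes were chosen with earlier results of these data known. Named by rule were the 12 largest rises and falls that met the shared condition with separated mice and a mean of at least 1 CPM, members of each pathway list with the smallest p (up to 4), the most abundant marker genes, 16 genes in every case and the 5 called genes with the largest difference between genotypes. Not all genes of this rule are described. Other genes, such as Wnt2b, Plekhb2, Tlr9, Art2b and Mir142b, were chosen after their values were seen. Limits of 3 counts per library and the exact intervals cover counting error only. P-values were adjusted over all genes tested. Values of some genes that the rule names are not reported here.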

Additional observations from a re-analysis of the deposited data

Results flagged for a closer look

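Among the genes named above or ranked first in a list, 14 had an MTX effect that differed between flox and KO mice by a test of the difference itself (edgeR, adjusted p below 0.1). The values are the KO minus flox difference of the log2 fold change, so that a negative value means a larger rise, or a smaller fall, in flox mice.

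The response was more positive in flox mice for Igha (-4.41, adjusted p = 0.0836), Vsig4 (-2.64, adjusted p = 0.0847), Lyve1, a receptor of lymphatic endothelium and resident macrophages (-2.43, adjusted p = 0.097), and Bst2, an interferon-induced antiviral protein (-0.93, adjusted p = 0.086). Igha and Vsig4 rose in both genotypes.

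Metabolic genes that fell in flox mice, with KO log2 fold changes of 0.012 (Fads2) to 0.33 (Mthfd1l), were Mthfd1l, a mitochondrial folate enzyme (3.59, adjusted p = 0.097), Cad, which begins pyrimidine synthesis (3.05, adjusted p = 0.0847), Fads2, a fatty acid desaturase (3.10, adjusted p = 0.083), and Slc2a3, a glucose transporter (2.49, adjusted p = 0.083). Each was highest in flox vehicle replicate 3, the library with the most epididymis RNA, whose part in this was not tested.

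Genes known from male germ cells were Odf2 (1.53, adjusted p = 0.0836), Prm2 (10.51, adjusted p = 0.0585), Rimbp3 (11.59, adjusted p = 0.0836), Sycp1 (11.56, adjusted p = 0.0669) and Tnp1 (11.39, adjusted p = 0.0262), beside Prr30 (12.09, adjusted p = 0.063). For those with a group at or near 0 counts the fitted difference depends on the prior count and is no measure of size. With the replicate block, 0 genes were called in this comparison.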

How the results depend on the processing

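Against 2719 genes called in the average and 1507 shared, a minimum of 10 counts in every library gave 1165 and 466, the replicate block 1157 and 812, and omission of KO vehicle replicates 1 and 2, an alternative chosen after seeing the data, 39 and 30. A log2 limit of 1.5 gave 1334 and 654, an adjusted p below 0.05 gave 1602 called, and no fold limit gave 3320 shared. The 4528 calls in flox mice became 2198 with the count minimum, 2771 with the block and 2791 with the log2 limit. The 0 calls in KO mice became 281 with DESeq2 and 20 without a filter. The 185 calls of the difference became 1248 with DESeq2, 472 without a filter, 1 with the count minimum, 0 with the block, 116 without epididymis and testis genes and 33 at an adjusted p below 0.05. The cause of these changes was not tested.

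Leaving out 1 library at a time gave 1375 to 3732 calls in the average, 910 to 1889 shared, 2219 to 5995 in flox mice, 0 to 215 in KO mice and 5 to 1371 for the difference. The averaged count was 1375 without KO vehicle replicate 2, 1526 without KO vehicle replicate 1, 1555 without flox vehicle replicate 3 and 1721 without KO MTX replicate 3. Of the shared genes, 95 rises and 597 falls were shared in all 12 of these fits. Library size as the only scaling gave 436 higher and 2115 lower genes, against 826 and 1893, and moved the median of all genes to -0.101.

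Same-numbered mice of different groups had a median correlation of deviations of 0.0353, against 0.0112 for others. With 12 such pairs, ranging from -0.273 to 0.254, this cannot settle whether mice of equal number shared a litter or cage. Under the replicate block 0 B cell, 2 plasma cell, 2 macrophage, 3 T and NK cell and 11 cilia markers were called. Of the 238 named genes, 192 of which passed the count minimum and 230 the omission of marker genes, 0 reversed direction under another tool, scaling, filter or model, the block or a single omission. The effect was classed as weaker for 75 of them under the block and for 59 and 57 without KO vehicle replicates 2 and 1. Without flox vehicle replicate 3 and KO MTX replicate 3 it was weaker for 49 and 43. The omissions of 2 libraries were run for counts only.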
